A study of Mus musculus with 6 samples.

Results

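The genes described here are 54 members of the non-collagen extracellular matrix that fibroblasts make: glycoproteins, proteoglycans and the enzymes that crosslink matrix. They were selected by gene symbol alone from a list of such genes, and each of the 54 symbols was found once among the 26898 genes of the expression table. Expression was measured by RNA sequencing in primary fibroblasts (MEFs) grown at passage 3 from mid-gestation embryos of C57BL/6 mice. The 3 WT samples (WT 4, WT 5 and WT 8) carried the genotype Kansl1 fl/fl, in which Kansl1 is flanked by recombination sites on both alleles. The 3 KO samples (KO 3, KO 7 and KO 10) carried Kansl1 fl/fl/CAG-cre, that is, the same alleles together with a ubiquitously driven Cre recombinase that tamoxifen activates. All 6 samples, WT included, received 1 μM tamoxifen for 48 h, and the study states that 3 mice were used per group. No cells with Cre but without the floxed alleles were analysed here, so an effect of Cre and an effect of losing Kansl1 cannot be told apart.

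Matrix glycoproteins such as fibronectin and the laminins form networks to which cells attach through integrins, and proteoglycans carry long sulphated sugar chains that hold water and bind growth factors. Elastin is laid down on a scaffold of fibrillin microfibrils, and lysyl oxidases and transglutaminases join neighbouring proteins into a stable fabric. Fibroblasts are the main producers of this material in connective tissue, and cultured MEFs make much of it. Kansl1 encodes a subunit of the NSL complex, a chromatin complex that contains a histone acetyltransferase. The question addressed was which of these genes differed between MEFs with and without intact Kansl1.

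Values are in TPM, a unit of transcript abundance that corrects for gene length and whose sum is equal in all samples. Reads recovered from the TPM values numbered 17655495 in KO 3, 27718259 in KO 7 and between 22812595 and 24263082 in the 3 WT samples. The most abundant RNA, Gm23935, took between 15.5% and 25.6% of TPM, most of all in KO 3 (25.6%) and WT 8 (24.3%). Kansl1 itself (chromosome 11, 104333229 to 104468861 on mm10) was at 28.5, 26.7 and 24.4 TPM in WT 4, 5 and 8, and at 13.7, 15.8 and 14.4 TPM in KO 3, 7 and 10. It was lower in every KO sample than in any WT sample, with a log2 fold change of -0.82 (SE 0.11) and an adjusted p of 0.000859 by limma, which became 0.00608 without KO 10. These reads come from the whole gene, including parts that need not be deleted. In bulk RNA, fewer cells of a type and less RNA per cell cannot be told apart. Of the fibroblast markers, Col1a1 was between 3080 and 5809 TPM, Vim between 2212 and 2522 TPM, Pdgfrb between 96.3 and 141 TPM and Pdgfra between 4.83 and 11.3 TPM, while S100a4 was at most 1.48 TPM. In KO, 0 of 10 tested markers were called by limma, against 1.64% of all genes tested called higher and 9.03% lower. An unadjusted p under 0.05 was found for 1 marker, against 39.4% of all genes tested, and voom called 0.

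The stretch upstream of the start site is printed for 4 of the members with a RefSeq entry, picked after their values were seen. Postn, Aspn and Gpc3 were low in the same pair of samples, 1 of each group, and Vcan is a member at which the KO samples lay above the WT samples. The sequences are the 250 bases before the RefSeq start site on GRCm38.p6, the same build as mm10, read 5′ to 3′ on the strand of the gene. Capitals mark the letters TATAAA, the core of the TATA box, or GGGCGG, the core of the GC box, on either strand, so that TTTATA and CCGCCC are matches on the other strand. The 2 motifs share no letters in any match.
Postn (chr3:54360857-54361106, plus strand): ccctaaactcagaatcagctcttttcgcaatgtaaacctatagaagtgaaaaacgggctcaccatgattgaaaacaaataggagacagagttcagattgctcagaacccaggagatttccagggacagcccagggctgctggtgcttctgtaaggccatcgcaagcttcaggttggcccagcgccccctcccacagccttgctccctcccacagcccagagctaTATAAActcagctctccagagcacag
Aspn (chr13:49544193-49544442, plus strand): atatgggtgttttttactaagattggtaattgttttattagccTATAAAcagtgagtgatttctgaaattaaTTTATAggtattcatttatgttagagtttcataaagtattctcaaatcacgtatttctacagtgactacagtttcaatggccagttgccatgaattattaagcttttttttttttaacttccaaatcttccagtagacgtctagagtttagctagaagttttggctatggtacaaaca
Gpc3 (chrX:52613975-52614224, minus strand): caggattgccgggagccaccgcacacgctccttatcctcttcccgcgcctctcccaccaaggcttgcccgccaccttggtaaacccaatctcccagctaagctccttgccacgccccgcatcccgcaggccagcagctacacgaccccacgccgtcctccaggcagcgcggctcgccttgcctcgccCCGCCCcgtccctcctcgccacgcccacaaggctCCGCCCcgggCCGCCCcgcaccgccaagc
Vcan (chr13:89742513-89742762, minus strand): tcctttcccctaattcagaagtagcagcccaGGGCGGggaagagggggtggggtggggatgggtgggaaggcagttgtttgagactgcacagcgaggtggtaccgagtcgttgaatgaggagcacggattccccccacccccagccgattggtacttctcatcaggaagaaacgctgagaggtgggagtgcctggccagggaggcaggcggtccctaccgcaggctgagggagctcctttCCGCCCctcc
In Postn, the match to TATAAA began 26 bases before the start, and the windows of Postn, Aspn, Gpc3 and Vcan held 52.0%, 30.0%, 71.6% and 62.4% G and C. Over the 32 members with an entry in the RefSeq table, 7 windows (21.9%) held TATAAA, against 12.4% of all 32851 windows. GGGCGG was found in 18 members (56.2%), against 32.7% of all windows, and the median G and C content was 59.0%, against 52.4%. These matches describe letters in the windows and were not tested as binding sites. No entry was matched for Dcn, Eln, Fbn2, Fn1, Gpc1, Gpc6, Has2, Lama4, Lamc1, Lox, Loxl1, Loxl2, Loxl3, Lum, Matn2, Mfap4, Mfap5, Nid2, Plod2, Sdc2, Tgm2 and Thbs1.

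Of the 54 members, 53 reached a mean of 1 TPM in a group and were tested. Prelp, a small leucine-rich proteoglycan, was between 0.292 and 0.885 TPM and was not tested. At the thresholds of the study (adjusted p under 0.005 and a log2 fold change beyond 0.5 in either direction), 1 member was called lower in KO, Tgm2, and 0 were called higher. Over all 14799 genes tested, 9.03% were called lower and 1.64% were called higher. At an adjusted p under 0.05 with no limit on the fold change, 5 members passed, against 27.8% of all genes tested. These were Tgm2 and Loxl3, which were lower in KO, and Gpc6, Gpc1 and Vcan, which were higher. Without adjustment, 11 members (20.8%) had a p under 0.05, against 39.4% of all genes tested. Voom on recovered reads called 1 member higher, Gpc6, and 1 lower, Tgm2, against 2.93% and 14.5% of all genes tested. The 3 KO samples all lay above or all below the 3 WT samples for 12 members, against 43.2% of all genes tested. In these counts the share of members that passed was below the share of all genes. The number of members at an adjusted p under 0.05 depended on the setting: it was 17 (32.1%, against 43.4% of all genes tested) with median-of-ratios scaling, 15 (28.3%, against 44.3%) with voom, 10 (18.9%, against 38.6%) without the most abundant RNA and 8 (16.0%, against 30.4%) at a mean of at least 10 TPM, but 2 (3.70%, against 11.9%) with no filter and 2 (3.77%, against 26.9%) with no variance trend. With 1 sample left out it was lowest at 2 (3.77%), without KO 7 (against 23.7% of all genes) or KO 10 (against 18.0%). It was 3 without WT 8 (5.66%, against 23.4%) and highest at 7 without WT 4 (13.2%, against 23.8%). It was 14 (26.4%, against 28.2%) with WT 4 and KO 3 left out together, a setting chosen after seeing the data.

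The precision of the comparison differed between members. For 24 of the 53 members (45.3%) the 95% confidence interval of the log2 fold change lay wholly between -0.5 and 0.5, against 35.0% of all genes tested and 53.7% of those with a mean of at least 10 TPM. For these 24 members a change as large as the study's limit was outside the interval. For the other 29 members the interval reached beyond that limit. It excluded 0 for 11 of these, and held 0 for 18, for which neither no change nor a change of that size lay outside the interval. The median log2 fold change was 0.09 over the members and -0.07 over all genes tested. A positive value was found for 35 members and a negative value for 18, against 6308 and 8491 of all genes tested. The members' median was 0.02 without WT 4 (against -0.05 over all genes tested), 0.03 without KO 7 (against -0.13), 0.16 without WT 5 (against -0.05), 0.20 without KO 3 (against -0.01) and 0.20 with median-of-ratios scaling (against 0.02). Summed over all members, expression was between 24330 and 27450 TPM in WT and between 22770 and 27650 TPM in KO, and these ranges overlapped.

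**Figure D1:**
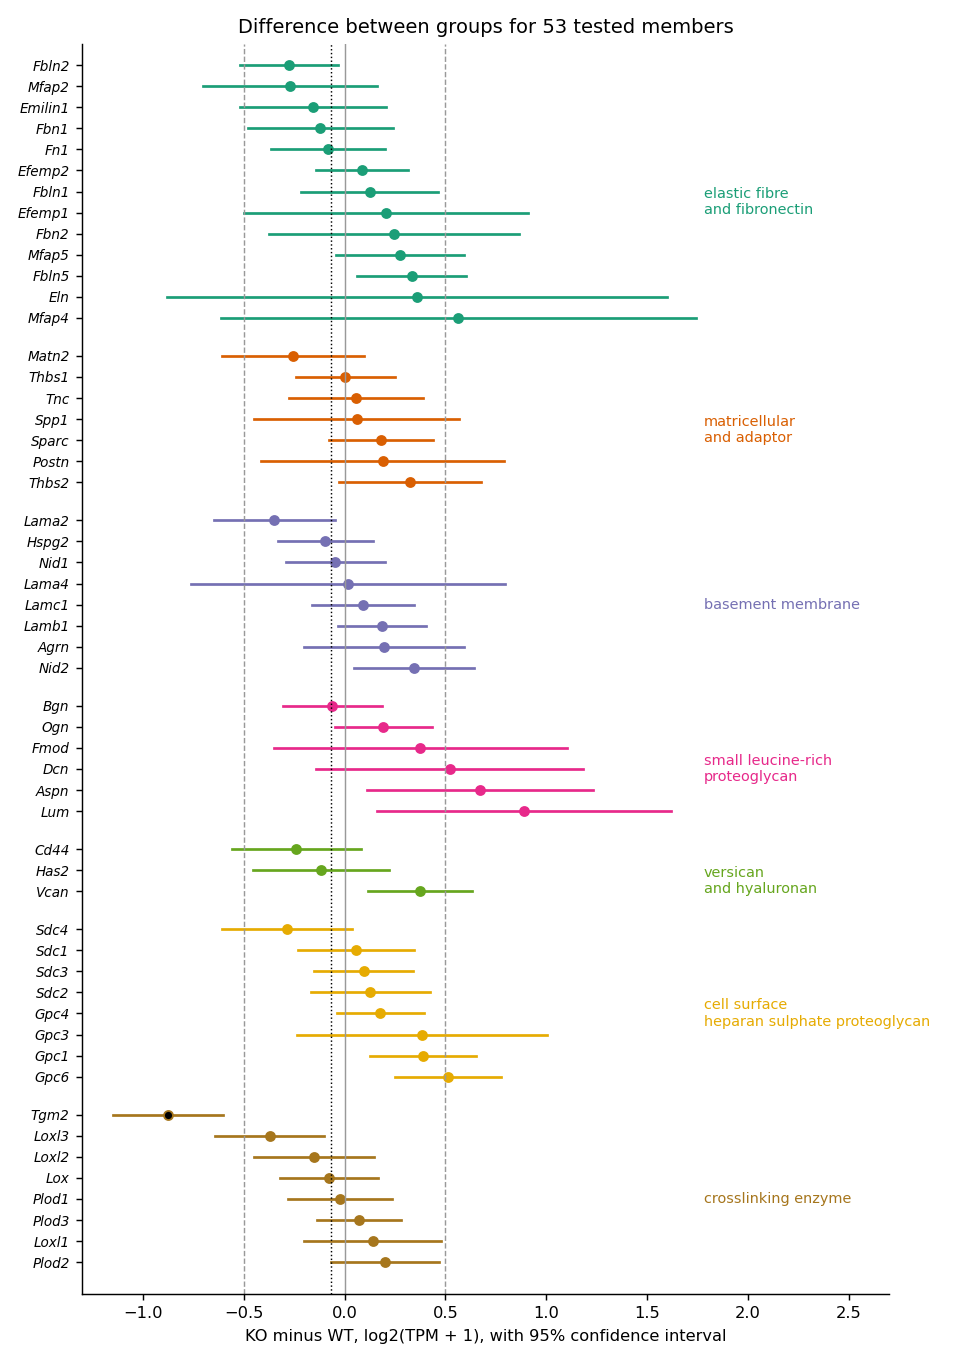
The horizontal axis gives the KO minus WT difference in log2(TPM + 1) for the 53 tested members, grouped by role, as a point with its 95% confidence interval from limma (n = 3 per group). Dashed lines stand at -0.5 and 0.5, the dotted line at the median of all tested genes (-0.07), and the point with a black centre is the called member, Tgm2, at -0.87, which lies apart from the other 52 members.

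Crosslinking enzymes held the called member. Tgm2 (ENSMUSG00000037820, chromosome 2, 158116402 to 158146436, minus strand) encodes transglutaminase 2, which joins glutamine to lysine side chains between proteins such as fibronectin. It was at 24.7, 27.3 and 22.7 TPM in WT 4, 5 and 8, and at 11.7, 13.1 and 14.7 TPM in KO 3, 7 and 10. All KO samples lay below all WT samples, and the mean fell from 24.9 ± 2.32 to 13.1 ± 1.47 TPM (SD, n = 3), which is 52.8% of the WT mean. The log2 fold change was -0.87 (SE 0.12, 95% confidence interval -1.15 to -0.60, adjusted p = 0.00102 by limma), from between 393 and 1105 reads per sample. Without WT 5 or without KO 7 the adjusted p was 0.00528 and 0.00541, above the study's threshold, with log2 fold changes of -0.81 and -0.87. Exons of Tgm2 share 633 bases (13.7% of its exon length) with those of Gm20412, which is not among the genes of the table, and 370 bases (8.0%) with those of Rprd1b, both on the opposite strand, and Rprd1b was at 15.8 TPM in WT and 10.6 TPM in KO (adjusted p = 0.0150). The library kit does not mark strand, and the strand setting used in counting is not given, so reads from the shared bases cannot be assigned.

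Lysyl oxidases oxidise lysine in collagen and elastin so that crosslinks can form. Of the 4 among the members, Loxl3 had the largest difference, and 0 were called. Loxl3 (chromosome 6, 83034173 to 83052562) was at 190, 166 and 156 TPM in WT and at 117, 129 and 149 TPM in KO. The groups did not overlap, but KO 10 lay just under WT 8, and the log2 fold change of -0.37 (95% confidence interval -0.64 to -0.10, adjusted p = 0.0446 by limma) did not pass the study's thresholds. The adjusted p of Loxl3 was above 0.05 with no filter (0.0926), with no variance trend (0.0820) and in 4 of 6 fits with a sample left out (not without WT 8 or KO 10), up to 0.124. Loxl3 shares 535 exon bases with Htra2 on the opposite strand, which was at 35.3 TPM in WT and 36.6 TPM in KO. Lox, the most abundant crosslinking enzyme, was at 1176, 1296 and 1205 TPM in WT and 1034, 1266 and 1196 TPM in KO, so that the groups overlapped, with a log2 fold change of -0.08 (95% confidence interval -0.32 to 0.16). Loxl1 and Loxl2 differed by 0.14 and -0.15, and Loxl2 ranged from -0.25 to -0.04 with 1 sample left out. Loxl4, a relative that is not a member, was at 38.8 ± 7.38 TPM in WT and 26.2 ± 0.568 TPM in KO without overlap, a larger difference of -0.53 (adjusted p = 0.0157) that was not called either. The 3 lysyl hydroxylases Plod1, Plod2 and Plod3, which modify collagen lysines inside the cell, differed by -0.02, 0.20 and 0.07. With 1 sample left out, Plod2 ranged from 0.10 to 0.31 and Plod3 from 0.02 to 0.10. For 6 of the 8 crosslinking enzymes the confidence interval lay between -0.5 and 0.5, the exceptions being Tgm2 and Loxl3.

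Among the cell surface heparan sulphate proteoglycans, 7 of 8 members had a positive log2 fold change and 0 were called, with a median of 0.15. Over all 14799 genes tested, 6308 had a positive value. Glypicans are anchored to the membrane by a lipid and bind growth factors through their heparan sulphate chains. Gpc6 (chromosome 14, 116925315 to 117976544) was at 17.0, 15.2 and 14.0 TPM in WT and at 20.3, 24.0 and 22.8 TPM in KO, with all KO samples above all WT samples. Its mean was 15.4 ± 1.54 TPM in WT and 22.4 ± 1.90 TPM in KO (SD, n = 3), a log2 fold change of 0.51 (95% confidence interval 0.25 to 0.77, adjusted p = 0.0108 by limma), and it passed the thresholds under 4 of the 7 alternative settings run on all samples. Its adjusted p was 0.0534 without KO 10 and under 0.05 in the other 5 fits with a sample left out. Gpc1 (chromosome 1, 92831645 to 92860779) was at 74.3, 88.8 and 84.0 TPM in WT and at 94.0, 116 and 115 TPM in KO. Its groups did not overlap either, with a log2 fold change of 0.39 (adjusted p = 0.0347). Its adjusted p was above 0.05 with no filter (0.0711), with no variance trend (0.0655) and in 5 of 6 fits with a sample left out, up to 0.146, but not in the one without KO 3. Gpc4, the most abundant of the group, was at 301, 308 and 274 TPM in WT and at 339, 350 and 310 TPM in KO, a difference of 0.18 that did not pass (adjusted p = 0.203), with KO 10 just above WT 5. Gpc3, a glypican linked to overgrowth when lost, was at 24.5, 43.8 and 35.3 TPM in WT and at 28.0, 58.8 and 52.3 TPM in KO, with WT 4 and KO 3 lowest in their groups. The 4 syndecans, which span the membrane, differed by between -0.28 (Sdc4) and 0.13 (Sdc2). With 1 sample left out, Sdc4 ranged from -0.39 to -0.13 and Sdc2 from 0.04 to 0.23.

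**Figure D2:**
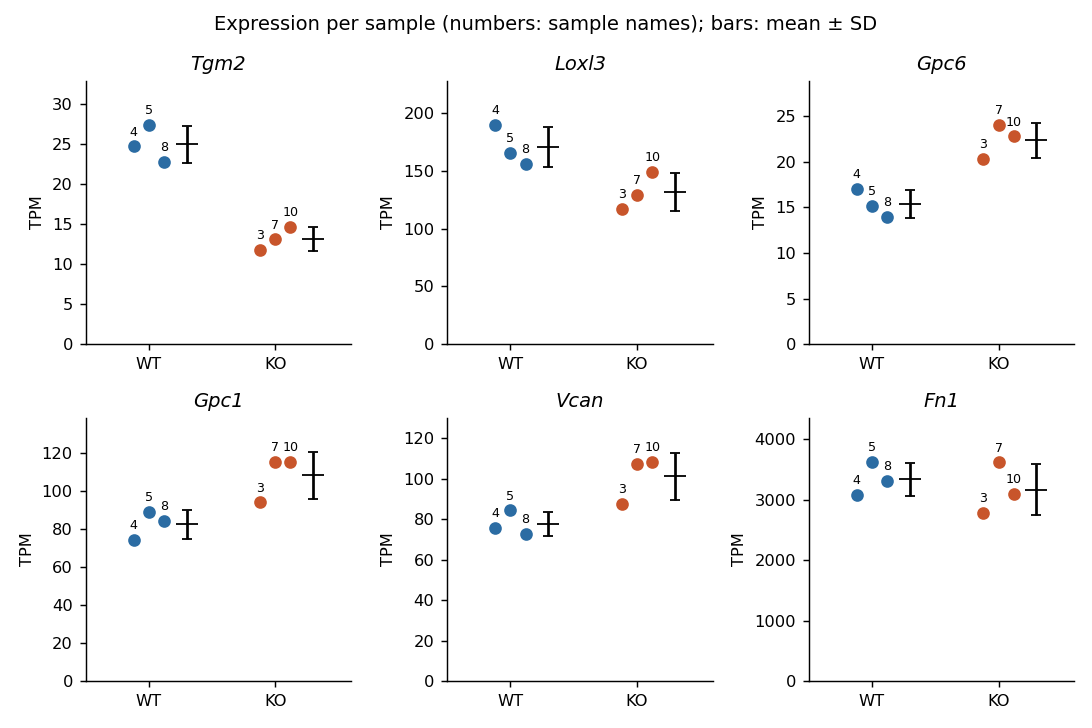
Each panel plots TPM in the 3 WT and 3 KO samples (points labelled with sample numbers) with the mean and SD beside them, for the 5 members at an adjusted p under 0.05 and for Fn1. Tgm2 and Loxl3 lie lower in KO and Gpc6, Gpc1 and Vcan higher, without overlap, whereas the groups of Fn1 overlap, at 3082 to 3631 TPM in WT and 2787 to 3616 TPM in KO.

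Versican and hyaluronan form a loose, hydrated matrix around cells. Vcan (chromosome 13, 89655312 to 89742509), the large chondroitin sulphate proteoglycan versican, was at 75.5, 84.4 and 72.9 TPM in WT and at 87.5, 108 and 109 TPM in KO. All KO samples lay above the WT samples, KO 3 by little, and the log2 fold change of 0.37 (95% confidence interval 0.12 to 0.63, adjusted p = 0.0369 by limma) did not pass the study's thresholds. The adjusted p of Vcan was above 0.05 with no filter (0.0720), with no variance trend (0.0690) and in 5 of 6 fits with a sample left out, up to 0.160, but not in the one without KO 3. Cd44, the hyaluronan receptor, was at 839, 588 and 574 TPM in WT and at 543, 554 and 573 TPM in KO. KO 10 lay just under WT 8, and WT 4 stood above the other samples, so that the log2 fold change was -0.24 with all samples and -0.06 without WT 4. Has2, the main hyaluronan synthase of these cells, had the same shape, with 105 TPM in WT 4 and between 70.2 and 80.2 TPM in the other 5 samples.

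Small leucine-rich proteoglycans bind collagen fibrils and regulate their thickness, and they had the highest median log2 fold change of the 7 role groups, 0.45 over 6 tested members, with 0 called. Lum, lumican, was at 1.51, 4.66 and 4.39 TPM in WT and at 4.44, 8.14 and 8.78 TPM in KO. KO 3 lay within the WT range, and the log2 fold change of 0.89 had a 95% confidence interval of 0.16 to 1.62 (adjusted p = 0.0700 by limma). Its depth was the least of the tested members, with between 30 and 193 reads per sample. Aspn, asporin, was at 27.5, 55.7 and 40.5 TPM in WT and at 47.4, 69.8 and 77.8 TPM in KO, with KO 3 again inside the WT range (0.67, adjusted p = 0.0728). Dcn, decorin, was at 2.26, 5.68 and 5.65 TPM in WT and at 4.45, 7.92 and 7.83 TPM in KO (0.52, adjusted p = 0.221). In Lum, Aspn and Dcn, WT 4 was the lowest WT sample and KO 3 the lowest KO sample. Fmod, fibromodulin, was instead highest in WT 4, at 21.1 TPM against 9.0 and 6.95 TPM in WT 5 and WT 8, and was between 11.7 and 17.1 TPM in KO. Bgn, biglycan, was the most abundant of the group, at between 1130 and 1294 TPM in WT and between 1063 and 1277 TPM in KO, with a log2 fold change of -0.06 (95% confidence interval -0.31 to 0.18). Single samples moved these values: without WT 4, Lum was at 0.51, Aspn at 0.42, Dcn at 0.18 and Fmod at 0.81, and without WT 8 Fmod was at 0.07. With WT 4 and KO 3 left out together, Lum (0.78) and Fmod (0.96) were called higher together with Gpc6 (0.65), which is 5.66% of the members tested, against 2.40% of all genes in that fit, and Aspn was not called.

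Elastic fibre and fibronectin members, 13 in number, had 0 calls, and Eln and Mfap4 had the widest confidence intervals of all members. Fn1, fibronectin, was at 3082, 3631 and 3306 TPM in WT and at 2787, 3616 and 3098 TPM in KO. The groups overlapped, and the log2 fold change of -0.08 had a 95% confidence interval of -0.36 to 0.20, from between 236845 and 409441 reads per sample. Fbln2, a fibulin that binds fibronectin and basement membranes, was at 1183, 1304 and 1192 TPM in WT and at 907, 1120 and 1017 TPM in KO. All KO samples lay below the WT samples, but the log2 fold change of -0.28 did not pass (adjusted p = 0.0867). Fbln5, a fibulin needed for elastic fibre assembly, lay higher in KO, at between 150 and 170 TPM against between 109 and 146 TPM in WT (0.33, adjusted p = 0.0675). Eln, elastin, was at 3.61, 16.7 and 10.8 TPM in WT and at 4.62, 21.8 and 14.9 TPM in KO. The spread within each group was over 4-fold, and the interval of its log2 fold change of 0.36 ran from -0.88 to 1.6. Mfap4, a microfibril-associated glycoprotein, was at 9.63, 47.2 and 41.0 TPM in WT and at 24.3, 62.2 and 42.4 TPM in KO, and its log2 fold change was 0.56 with all samples and -0.13 without WT 4. The microfibril proteins Fbn1 and Fbn2 differed by -0.12 and 0.24, with overlapping groups.

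Matricellular and adaptor members, which modulate how cells interact with matrix, held 4 of the 8 members that reached 1000 TPM in a group mean. Thbs1, thrombospondin 1, was the most abundant member, at 5867, 5310 and 5033 TPM in WT and at 5120, 5482 and 5634 TPM in KO. The groups lay within each other, and the log2 fold change of 0.00 had a 95% confidence interval of -0.24 to 0.25. Tnc, tenascin C, differed by 0.06, Sparc by 0.18 and Spp1, osteopontin, by 0.06, each with overlapping groups. Thbs2, thrombospondin 2, had the largest difference of the group, 0.33 (adjusted p = 0.157), at 188, 290 and 236 TPM in WT and 258, 303 and 326 TPM in KO, and it was 0.17 without WT 4. Postn, periostin, was at 287, 670 and 507 TPM in WT and at 422, 589 and 582 TPM in KO, and its log2 fold change was 0.19 with all samples and -0.15 without WT 4. The 8 members at 1000 TPM or more together made up between 75.9% and 76.9% of the members' summed TPM in each sample.

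Basement membrane members link cells to the thin matrix sheet that underlies many tissues, and 0 of 8 were called. Nid1, nidogen 1, the most abundant of them, was at 509, 469 and 421 TPM in WT and at 408, 481 and 467 TPM in KO, with a log2 fold change of -0.05 (95% confidence interval -0.29 to 0.20). Lama2, the laminin alpha chain best known from muscle, was at 7.81, 7.41 and 6.71 TPM in WT and at 4.86, 5.44 and 6.34 TPM in KO. Its groups did not overlap, but the difference of -0.35 did not pass (adjusted p = 0.0825 by limma). Nid2 was at 37.9, 28.5 and 26.9 TPM in WT and at 38.1, 40.1 and 39.6 TPM in KO, with WT 4 almost at the KO level (0.34, adjusted p = 0.0843). Lamb1 and Lamc1, chains shared by several laminins, differed by 0.19 and 0.09, and the intervals of both lay between -0.5 and 0.5. Lama4 was at 6.36 TPM in WT 4 and 6.62 TPM in KO 3, against between 13.2 and 16.2 TPM in the other 4 samples.

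A recurring feature of the members was that 1 sample of each group was low. WT 4 was the lowest WT sample for 27 of the 53 tested members (50.9%), against 25.1% of all genes tested, and KO 3 was the lowest KO sample for 49 (92.5%), against 76.2%. Both held for 27 members (50.9%), against 19.0% of all genes tested. These 27 comprised 6 of 7 matricellular and adaptor members, 9 of 13 elastic fibre and fibronectin members, 3 of 6 small leucine-rich proteoglycans, 3 of 8 members in each of the basement membrane, cell surface and crosslinking groups, and 0 of 3 members related to versican and hyaluronan. After scaling by the median of ratios, which offsets the share taken by very abundant RNAs, WT 4 was lowest for 35 members (66.0%, against 42.2%) and KO 3 for 26 (49.1%, against 37.6%), and both held for 22 (41.5%), against 18.5% of all genes tested. On the TPM scale WT 4 was the highest WT sample for 17 members (32.1%), against 49.8% of all genes tested. Across the 53 members, the deviations of WT 4 and KO 3 from their group means on the log2(TPM + 1) scale had a Pearson correlation of 0.77, against 0.11 across all genes tested. The deviations of a group sum to 0, so other pairs were linked as well. Across the members WT 5 had a correlation of -0.805 with KO 3 and 0.728 with KO 7, against -0.083 and 0.058 across all genes tested. These values describe genes within the same 6 libraries, which are not independent points. For 46 of the 53 members (86.8%) the larger of the ranges within a group exceeded the difference between the group means, against 65.8% of all genes tested.

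**Figure D3:**
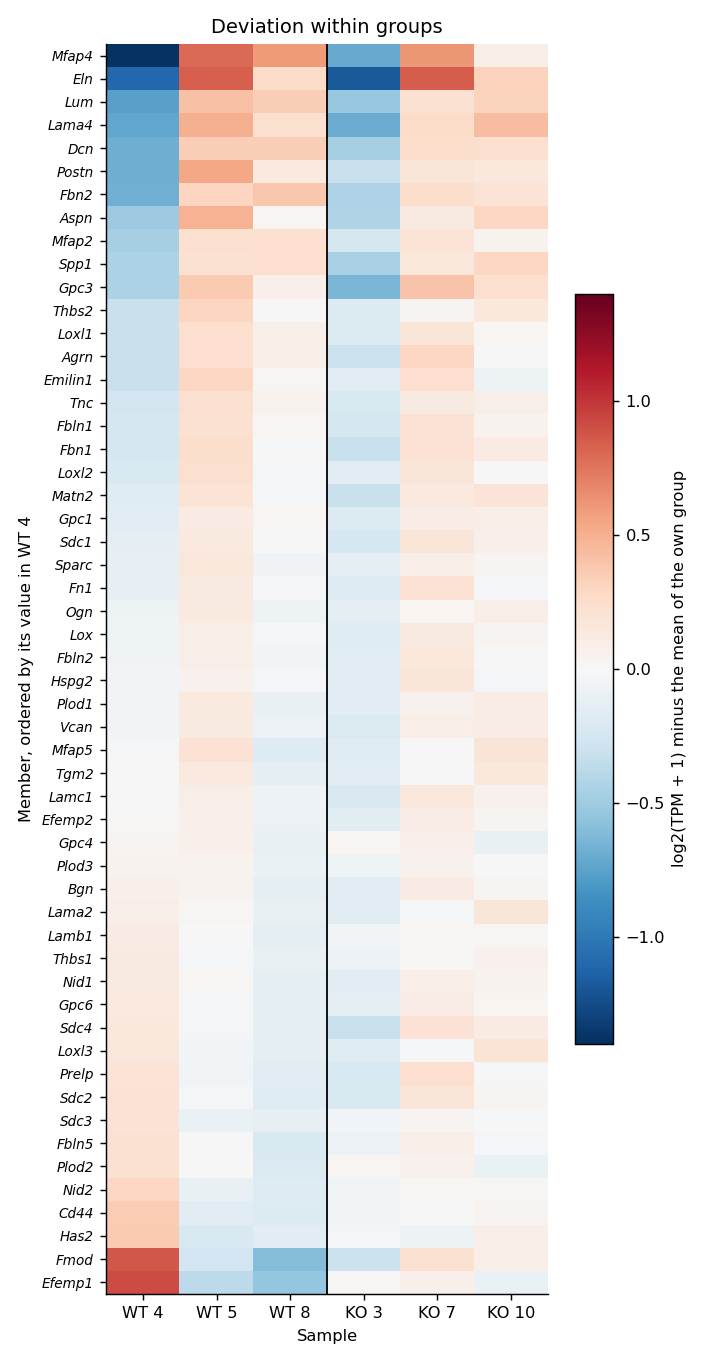
Colour gives log2(TPM + 1) minus the mean of the own group for the 54 members (rows, ordered by WT 4) in the 6 samples (columns), blue below and red above that mean. Mfap4, Eln, Lum and Lama4 are blue in both WT 4 and KO 3, whereas Efemp1 and Fmod are red in WT 4.

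The members furthest below their group in WT 4 were Mfap4, Eln, Lum and Lama4, and all 4 were also lowest in KO 3. WT 4 and KO 3 were both lowest of their group for 9 of 11 fibrillar collagen genes and for 14 of 24 genes of collagen hydroxylation, folding and propeptide cleavage, but for 6 of 19 relatives of the members, of which 12 were highest in WT 4. Col1a1 was at 3080 TPM in WT 4 and 4195 TPM in KO 3, the lowest of each group, and Col3a1 was at 164 and 225 TPM. The same held for 8 of 10 fibroblast markers, while the other 2 were highest in WT 4. The sum of these markers, of which Col1a1 and Col1a2 are a large part, was 7391 TPM in WT 4 and 8391 TPM in KO 3, again the lowest of each group, whereas the groups as a whole overlapped at 7391 to 11420 and 8391 to 11050 TPM. KO 3 was also the sample with the fewest reads and the largest share of Gm23935, but WT 4 had the smallest share of that RNA (15.5%). The part of these differences between samples in the results was not tested. Efemp1, a fibulin-like glycoprotein, went the other way, at 43.8 TPM in WT 4 against 17.4 and 15.4 TPM in WT 5 and WT 8 and between 24.9 and 27.9 TPM in KO.

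**Figure D4:**
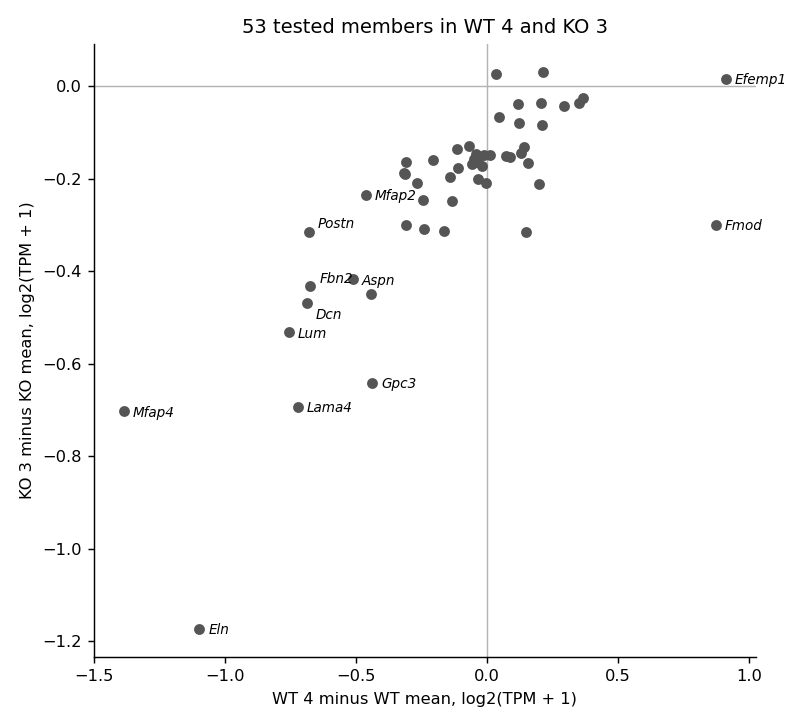
Each point is 1 of the 53 tested members, with its deviation from the group mean in log2(TPM + 1) in WT 4 (horizontal axis) and in KO 3 (vertical axis). Eln, Mfap4, Lama4 and Lum lie at the lower left, low in both samples, while Efemp1 and Fmod lie to the right, high in WT 4.

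Genes that act on the members were given by list. Over all genes tested, 1.64% were called higher and 9.03% lower. Of 38 tested genes of glycosaminoglycan chain synthesis, which builds the sugar chains of the proteoglycans, 1 was called higher and 2 lower. Among the 38, 11 had an adjusted p under 0.05, against 27.8% of all genes tested. Ext2, a polymerase of heparan sulphate chains, fell from 50.5 ± 0.645 to 25.1 ± 2.19 TPM (log2 fold change -0.98, adjusted p = 0.000318 by limma). Xylt2, which attaches the first sugar of the chain to the core protein, fell from 15.1 ± 0.599 to 8.73 ± 1.69 TPM (-0.74, adjusted p = 0.00455). Sulf2, which removes sulphate from heparan sulphate outside the cell, rose from 63.2 ± 4.59 to 121 ± 7.99 TPM (0.93, adjusted p = 0.000365). These 3 genes act on the chains that the glypicans, syndecans, Hspg2 and Agrn carry. With each sample left out in turn, Ext2 and Sulf2 were called in 6 of 6 fits and Xylt2 in 1, the one without KO 7, with adjusted p-values of Xylt2 up to 0.0190. The median over the list was 0.01, against -0.07 over all genes tested.

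Of 7 tested genes of hyaluronan synthesis and turnover, 21 of transforming growth factor beta supply and signalling, 16 matrix proteases and their inhibitors and 11 fibrillar collagens, 0 were called in either direction by limma. At an unadjusted p under 0.05 there were 3, 4, 4 and 0, voom called 2, 1, 2 and 0, and their medians were 0.24, 0.07, 0.02 and 0.16. Over all genes tested, 39.4% had an unadjusted p under 0.05, and voom called 2.93% higher and 14.5% lower. Of 24 genes of collagen hydroxylation, folding and propeptide cleavage, 1 was called lower, Tmem38b, a potassium channel of the endoplasmic reticulum, which fell from 6.14 ± 0.12 to 3.02 ± 0.606 TPM. Of 19 tested relatives of the members, 1 was called lower, Thbs3, a thrombospondin, which fell from 17.4 ± 2.75 to 8.15 ± 1.53 TPM (-1.01, adjusted p = 0.00190). Exons of Thbs3 share 318 bases with those of Mtx1 on the opposite strand, which was also lower in KO (11.0 TPM in WT and 5.72 TPM in KO), so the source of the shared reads cannot be told apart. With each sample left out in turn, Tmem38b was called only without KO 7 and Thbs3 only without WT 4, and both stayed lower in KO in all 6 fits.

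**Figure D5:**
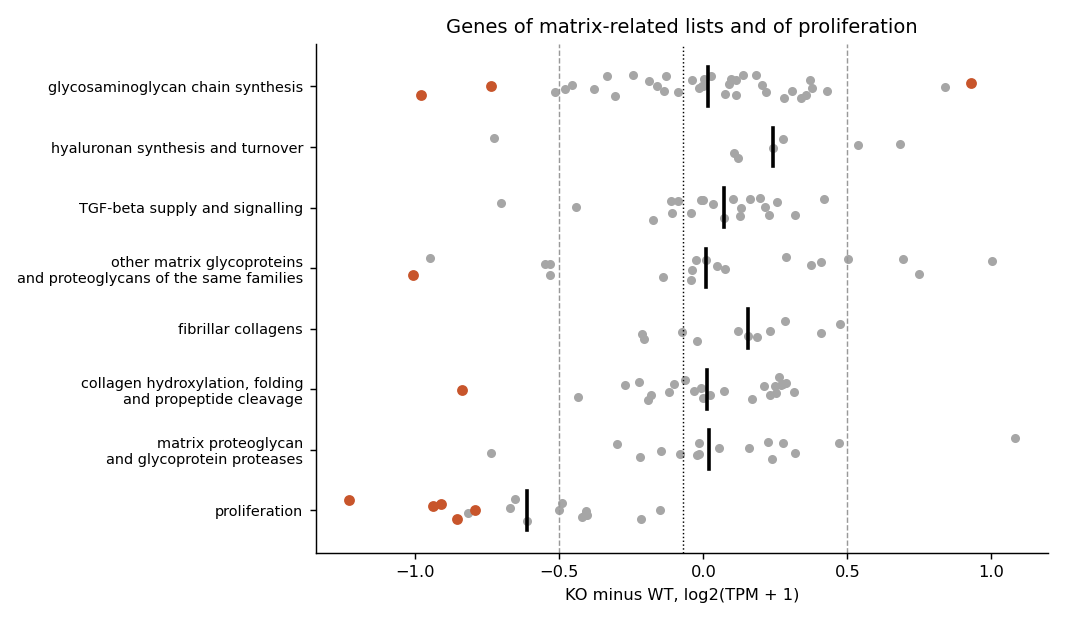
Points are tested genes of 8 lists (rows) by their KO minus WT difference in log2(TPM + 1), in red where called and grey where not, with the list median as a black bar. Dashed lines stand at -0.5 and 0.5 and the dotted line at the median of all tested genes (-0.07), and the proliferation list has all 17 genes below 0, with a median of -0.61.

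Markers of proliferation and of other cells moved with the groups and are given beside these results. Over all 14799 genes tested, 1.64% were called higher, 9.03% were called lower and 27.8% had an adjusted p under 0.05. Of these genes, 6308 had positive and 8491 negative values. Of 17 proliferation genes, 5 were called lower, and all 17 had negative values. The mitotic checkpoint kinase gene Bub1 fell from 30.0 ± 4.73 to 12.3 ± 2.54 TPM, the cyclin gene Ccna2 from 56.3 ± 5.44 to 29.1 ± 5.65 TPM, and Mki67, a marker of cycling cells, from 61.9 ± 9.44 to 32.6 ± 6.05 TPM. With each sample left out in turn, Bub1 was called in 6 of 6 fits, Ccna2 in 3 (not without WT 4, WT 5 or KO 10) and Mki67 in 1 (without WT 8). The other 2 called genes, Plk1 and Ccnb1, were called in 2 and 0 of the 6 fits, with adjusted p-values up to 0.00717 and 0.00923. Of 11 tested macrophage markers, 2 were called higher, Lyz2 and C1qc, all 11 had positive values and 10 had an adjusted p under 0.05, and the summed level of the list was 47.3 to 56.8 TPM in WT and 99.5 to 194 TPM in KO. C1qc was called in 1 of 6 fits with a sample left out (without KO 7) and Lyz2 in 5 (not without WT 8). The macrophage markers Csf1r and Adgre1 were at 1.41 and 0.753 TPM in WT and at 3.39 and 2.05 TPM in KO (adjusted p = 0.0229 and 0.0249), and the 3 markers of the list that were not tested, Ptprc, Itgam and Cd163, were at most 0.379 TPM in any sample. Of 7 smooth muscle and myofibroblast markers, 1 was called lower, Myh11, which fell from 25.5 ± 3.79 to 11.5 ± 0.944 TPM. Values were negative for 6 of the 7 and positive for 1. The summed level of the list, of which Acta2 is a large part, was 6597 to 7506 TPM in WT and 4903 to 5718 TPM in KO. Acta2 was at 5653 ± 353 TPM in WT and 4234 ± 365 TPM in KO (adjusted p = 0.0218 by limma) and was not called. In the marker lists of 7 further cell types (skeletal muscle, chondrocyte, osteoblast, endothelial, epithelial, neural and adipocyte), 0 of 16 tested genes were called. Of these, 6 had an unadjusted p under 0.05, against 39.4% of all genes tested, and voom called 1. The part of these markers in the results for Tgm2 and the other members was not tested.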

How the data were processed

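The members and the gene lists were chosen with earlier results of these data known. RNA sequencing was made from 6 MEF samples. STAR (alignment to mm10) and DESeq2 (tests) were used by the authors, and the submitters' processing notes name Bowtie 0.12.2. The NEBNext Ultra RNA kit does not mark strand. The authors deposited TPM per gene and sample, and the deposited log2 fold changes and adjusted p-values of the authors were not used. The labels give serum at 10%, below the content in the study's general methods. Multiplied by GENCODE M21 exon length, every TPM value under 200 reads was a whole number of reads at a tolerance of 0.05 (100.0%). The recovered reads were used for depth and for the voom alternative, which called 433 genes higher and 2152 lower.

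Genes with a group mean of at least 1 TPM (14799 of 26898) were compared on log2(TPM + 1) with limma 3.58.1 in R 4.3.3 (variance trend, 2 groups, no covariate, Benjamini-Hochberg adjustment, two-sided). The pseudocount of 1 understates changes of genes with low expression. The fit was tested on simulated counts with the same dispersion for all genes and no shifts shared between samples. The simulation therefore does not give error rates for a spread like that of WT 4 and KO 3. No count test was run on TPM. Named genes were Kansl1, members that passed the thresholds, members at 1000 TPM or more, the most abundant and most different member of each role group, and up to 3 called genes of each list in each direction. Other genes were named after their values were seen. Separate embryos are implied by the stated 3 mice per group, and p-values measure the spread between these samples.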

Additional observations from a re-analysis of the deposited data

How the results depend on the processing

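No paired analysis was possible because no replicate number occurs in both WT and KO. Values are log2 fold changes unless counts are named. The 7 alternatives run on all samples (pseudocount 0.1, no filter, a mean of at least 10 TPM, no variance trend, median-of-ratios scaling, without the most abundant RNA, and voom on recovered reads) kept direction and call in 356 of the members' 368 comparisons. The call of Tgm2 was lost with no filter (-0.87, adjusted p = 0.00624 by limma). That left 0 members called lower, against 1.06% of all genes in that fit. Members called higher numbered 2 at a mean of at least 10 TPM: Gpc6 and Aspn, at 0.51 and 0.67 (4.0% of members, against 3.73% of all genes). At an adjusted p under 0.05 with the log2 limit of 0.5 kept, 1 member, Gpc6 (0.51), was called higher. Gpc6 was also the 1 member called higher with median-of-ratios scaling (0.61), without the most abundant RNA (0.53) and with voom (0.56). That is 1.89% of members, against 3.20%, 1.96% and 2.93% of all genes under these 3 settings. Median-of-ratios scaling moved the median of all genes from -0.07 to 0.02 and reversed Bgn (0.044), Fn1 (0.024), Hspg2 (0.0090), Lox (0.028), Nid1 (0.059) and Plod1 (0.080). Leaving out WT 4 and KO 3 together, chosen after seeing the data, called 3 members higher (5.66%, against 2.40% of all genes) and reversed Bgn (0.050), Has2 (0.078), Nid1 (0.091) and Plod1 (0.042). With 1 sample left out in turn, Kansl1 ranged from -0.87 to -0.77 and lost its call without KO 10 (adjusted p = 0.00608 by limma). Tgm2 ranged from -0.95 to -0.80 and kept its call in 4 of 6 fits. In these fits members called higher stayed at 0, against between 0.419% (without KO 10) and 1.4% (without WT 4) of all genes. Members called lower ranged from 0 to 1 (1.89%), against between 3.56% (without KO 10) and 5.26% (without WT 8) of all genes. Values on both sides of 0 were found for 18 members: Bgn from -0.12 to 0.015, Efemp1 from -0.063 to 0.66, Eln from -0.19 to 0.95, Fbn1 from -0.24 to 0.035, Fbn2 from -0.094 to 0.46, Fn1 from -0.18 to 0.0066, Has2 from -0.22 to 0.065, Lama4 from -0.34 to 0.37, Lox from -0.14 to 0.0067, Loxl1 from -0.017 to 0.26, Mfap4 from -0.13 to 0.96, Nid1 from -0.12 to 0.026, Plod1 from -0.075 to 0.0596, Postn from -0.15 to 0.46, Sdc1 from -0.029 to 0.18, Spp1 from -0.16 to 0.28, Thbs1 from -0.046 to 0.065 and Tnc from -0.078 to 0.17. Genes of the other lists called numbered 10, of which 5 were proliferation genes. Of all genes tested, 1.64% were called higher and 9.03% lower. These list genes numbered 25 at an adjusted p under 0.05 with the log2 limit kept. With no filter they numbered 2, against 0.204% of all genes called higher and 1.06% lower. At a mean of at least 10 TPM they numbered 19 (against 3.73% and 12.1%), and with no variance trend 6 (against 1.26% and 7.76%). With median-of-ratios scaling they numbered 17 (against 3.20% and 9.73%). Without the most abundant RNA they numbered 16 (against 1.96% and 11.2%), and with voom 22 (against 2.93% and 14.5%). With 1 sample left out they numbered from 3 to 7 (3 without WT 5 or KO 10, 5 without KO 3, 6 without WT 4), beside the shares of all genes given above for these fits. The cause of these shifts was not tested. Prelp had 10 to 31 reads per sample and Lum at least 30, and the other 52 tested members had at least 100 reads in each sample.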
